A study of Mus musculus with 6 samples.

Results

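The genes described here are 10 genes of the unfolded protein response, the programme by which a cell answers misfolded protein in the endoplasmic reticulum (ER), and of ER-associated degradation (ERAD), the route that moves such protein to the cytosol for destruction. They were taken by symbol, with no threshold on a measured value: the sensors Ern1, Atf6, Atf6b and Eif2ak3, the transcription factor gene Xbp1, the derlin genes Derl1, Derl2 and Derl3, and the stress-inducible genes Herpud1 and Creld2. These genes, and the pathway lists used below, were nevertheless chosen with earlier results of these data known. All 10 were among the 17912 genes of the deposited table, and all 10 passed the filter on low values. The study measured poly(A) RNA in 6 mouse libraries, all given as embryonic stem cells (ESCs). The 3 libraries named control replicates 1, 2 and 3 have the genotype WT, and the 3 named clones 5, 6 and 7 carry a short hairpin RNA against Exosc2 (genotype EXOSC2_KD), which encodes a subunit of the RNA exosome. The labels give neither a hairpin for the controls nor separate cultures for the libraries, and the p-values cover the spread between these libraries alone, which may be technical.

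The values are scaled counts, that is, reads per gene divided by a DESeq size factor for each library. In every library all values were whole multiples of its smallest nonzero value within 0.001, and the multiples summed to between 21107761 and 26494985. Exosc2 itself measured 2457, 2473 and 1954 in the controls and 1138, 997 and 981 in the clones, so the clones held 45.3% of the control mean. The clones differed from the controls in most genes: 73.5% of 15179 tested genes were called at an adjusted p under 0.05, 35.2% higher and 38.3% lower, and every count below is to be read against these shares. Of 12 pluripotency markers 10 were lower in the clones. Nanog measured 9698 ± 366 (SD, n = 3) in the controls and 0.674 ± 0.584 in the clones, Zfp42, Utf1 and Dppa3 were at 0 in every clone, and Pou5f1 was higher, at 91114 ± 2227 against 21045 ± 4721. Klf4 was higher too, at 14169 ± 2032 against 2415 ± 82.0, and Sox2 was lower but present, at a mean of 2805 against 11834. The clone libraries therefore show only a part of the marker set of the ESC label.

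The response starts from sensor proteins in the ER membrane. IRE1α (from Ern1) cuts Xbp1 mRNA so that, once rejoined, it encodes an active transcription factor. ATF6 and its relative ATF6B (from Atf6 and Atf6b) move to the Golgi, where proteases release the part that enters the nucleus, and PERK (from Eif2ak3) phosphorylates eIF2α, which slows translation and favours ATF4. XBP1 and ATF6 act on chaperone and ERAD genes, often through the ER stress element (ERSE), and embryonic stem cells and secretory cells are known to use this programme during growth and differentiation. Gene-level counts do not separate cut from uncut Xbp1 mRNA, nor do they show protein cleavage or phosphorylation.

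Promoter sequence was examined first, for exact matches to elements such as those read by ATF6 and XBP1. RefSeq promoter windows (GRCm38.p6, 250 bases before to 50 after the start) were given for 8 of the 10 genes. They were searched on both strands for ERSE (CCAAT, 9 bases of any kind, then CCACG), ERSE-II (ATTGG, 1 base of any kind, then CCACG), the XBP1 element UPRE (TGACGTGG) and the C/EBP-ATF element CARE (TGATGCAA). The 110-base stretches of the 3 genes with a match are shown 5′ to 3′ on the strand of the gene, with the matched letters in capitals. In Derl3 and Creld2 the ERSE reads on the opposite strand, and in Herpud1 the first capitals are a CARE on the opposite strand and the second an ERSE-II on the same strand. The matches do not overlap.
Derl3 chr10:75893196-75893305 (+): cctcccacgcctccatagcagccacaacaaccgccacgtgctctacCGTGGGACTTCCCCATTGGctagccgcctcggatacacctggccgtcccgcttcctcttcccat
Creld2 chr15:88819474-88819583 (+): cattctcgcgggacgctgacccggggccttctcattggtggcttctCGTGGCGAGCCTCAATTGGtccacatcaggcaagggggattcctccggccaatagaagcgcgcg
Herpud1 chr8:94386297-94386406 (+): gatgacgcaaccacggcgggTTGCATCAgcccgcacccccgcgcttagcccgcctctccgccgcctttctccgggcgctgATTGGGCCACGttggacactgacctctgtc

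The ERSE lay 138 to 156 bases before the start in Derl3 and 108 to 126 bases before it in Creld2, and the Herpud1 ERSE-II lay 42 to 52 bases before the start. An ERSE was present in 39 of all 32851 promoter windows (0.119%), an ERSE-II in 12 (0.0365%), a UPRE in 222 (0.676%) and a CARE in 294 (0.895%). Among other genes of the pathway, 7 of 23 ER chaperone and folding genes with a window held an ERSE: Hspa5, Hsp90b1, Calr, Canx, Pdia6, Dnajc3 and Ero1b (named Ero1lb in the table). None of the 8 members with a window held a UPRE, and Atf6 and Derl1 had no window to search. A match is a description of letters in this window and not a shown binding site. The lack of a match does not show that a gene lacks such an element, since variant or more distant ones would be missed.

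Ern1 and Xbp1, which form 1 branch, were both higher in the clones. Xbp1 (chromosome 11, 5520659 to 5525893, GRCm38) measured 1068, 921 and 1013 in the controls and 3020, 3089 and 2973 in the clones. All 3 clones lay above all 3 controls, and the clone libraries lay close together (SD 58.4 on a mean of 3028, against 74.3 on 1001). The log2 difference, clones minus controls on the log2(scaled count + 1) scale, was 1.598 ± 0.10 (SE; adjusted p = 1.49e-06 in limma). The kinase and RNase gene Ern1 (chromosome 11, 106394650 to 106487852) measured 359, 322 and 540 in the controls and 952, 777 and 796 in the clones. These groups did not overlap either, although control replicate 3 stood well above the other controls, and the log2 difference was 1.08 ± 0.20 (adjusted p = 0.00121 in limma). For both genes p was 0.1 in an exact permutation test (two-sided), the smallest that 3 against 3 libraries allow.

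**Figure D1:**
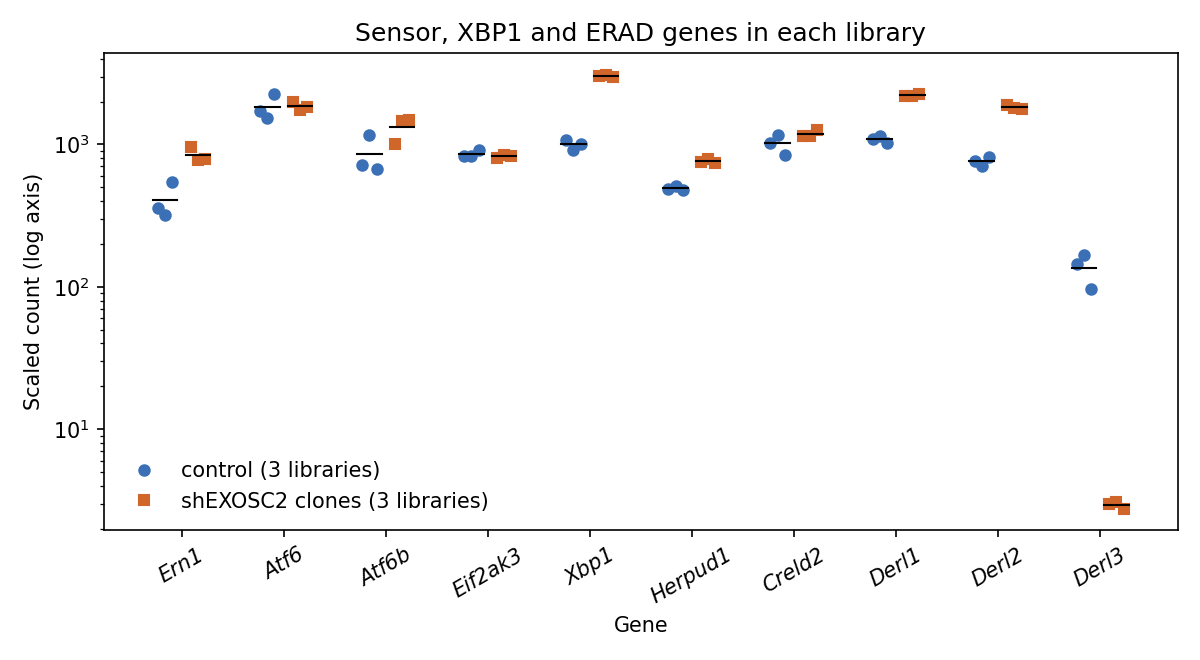
Scaled count (log axis) of the 10 genes in each library, with 3 control libraries as circles, 3 clones as squares and short lines at the group means. Xbp1, Ern1, Herpud1, Derl1 and Derl2 lie higher in all clones than in all controls, Derl3 falls to about 3 in every clone, and Atf6, Atf6b, Eif2ak3 and Creld2 overlap between groups.

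The ATF6 sensors showed no such separation. Atf6 (chromosome 1, 170704674 to 170867771) measured 1711, 1533 and 2263 in the controls and 1996, 1757 and 1843 in the clones, and the clone values lay within the control range. Its log2 difference was 0.04 (95% interval -0.30 to 0.39, adjusted p = 0.815 in limma). The 930 tested genes of chromosome 1 had a median log2 difference of -0.60, and with each chromosome's median subtracted Atf6 stood at 0.63 (adjusted p = 0.00175 in limma).

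Atf6b (chromosome 17, 34647146 to 34655074) measured 712, 1172 and 677 in the controls and 1014, 1466 and 1491 in the clones. Control replicate 2 exceeded clone 5, so the groups overlapped, and these values spread more than those of the other sensors (SD 276 on a control mean of 854). The log2 difference was 0.66 ± 0.24 (adjusted p = 0.0315 in limma). This call was lost on leaving out control 1 (0.55), control 3 (0.51), clone 6 (0.57) or clone 7 (0.56), and with quantile normalization (0.44) and eBayes without trend (adjusted p = 0.063). Per base of merged exons, Atf6b made up 58.2%, 71.9% and 50.04% of the summed Atf6 and Atf6b level in the controls and 63.0%, 73.6% and 73.0% in the clones. By coding length the Atf6b share was 27.8%, 41.4% and 21.7% in the controls and 31.97%, 43.6% and 42.8% in the clones, so which of the pair is the more abundant rests on the gene models. Neither share separated the groups (exact two-sided permutation p = 0.2 for each). The longest run of bases shared exactly by the Atf6 and Atf6b transcripts was 14.

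Eif2ak3, the PERK gene, was not called. It measured 829, 823 and 918 in the controls and 804, 839 and 827 in the clones (chromosome 6, 70844515 to 70905245). Control replicate 3 was the highest and clone 5 the lowest of the 6, with the rest within a narrow band. The log2 difference was -0.06 (95% interval -0.31 to 0.20, adjusted p = 0.664 in limma), and it was -0.44 (adjusted p = 0.00535 in limma) with chromosome medians subtracted, where chromosome 6 had a median of 0.41. Eif2ak3 shares 485 exonic bases with Gm43292 on the opposite strand.

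Genes downstream of PERK and ATF4 went largely down: 8 of the 12 fell, 2 rose, and their median log2 difference was -0.77, against 38.3% lower, 35.2% higher and a median of -0.07 over all genes. Atf4 itself measured 6894 ± 1247 in controls and 5269 ± 176 in the clones (log2 difference -0.37, adjusted p = 0.0391 in limma). The Atf4 call was lost on leaving out control 1 (-0.29), control 2 (-0.29), clone 5 (-0.37), clone 6 (-0.35) or clone 7 (-0.40), and with eBayes without trend. Ddit3, which encodes the stress factor CHOP, fell from 591 ± 336 to 174 ± 5.29. The asparagine synthetase gene Asns, the mTORC1 inhibitor gene Ddit4 and the transcription factor gene Atf3 fell, with log2 differences of -2.35, -2.23 and -3.21. The members that rose were Nupr1, from 495 ± 117 to 10335 ± 1517, and Cebpb, from 48.8 ± 17.8 to 320 ± 106. The CARE was found in 4 of 12 promoters of this list, those of Chac1, Atf3, Nupr1 and Vldlr, of which Chac1 and Atf3 fell, Nupr1 rose and Vldlr was not called (405 ± 151 and 563 ± 138). Chac1 and Vldlr are named for that match.

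Herpud1 and Creld2, both named as ER stress-inducible genes, differed in outcome. Herpud1 (chromosome 8, 94386438 to 94395377), whose product is a membrane scaffold of the ERAD complex, measured 490, 509 and 477 in the controls and 751, 794 and 744 in the clones. The groups lay apart, with SDs of 15.9 and 27.0, and the log2 difference was 0.63 ± 0.12 (adjusted p = 0.000997 in limma). Chromosome 8 as a whole had a median of -0.49, and with that subtracted Herpud1 stood at 1.11. Creld2 (chromosome 15, 88819646 to 88826683), which encodes a secreted ER protein with disulfide isomerase activity, measured 1026, 1174 and 849 in the controls and 1155, 1155 and 1258 in the clones. Control replicate 2 lay above 2 of the 3 clones, and the log2 difference of 0.24 was not called (95% interval -0.08 to 0.55, adjusted p = 0.149 in limma). Without control replicate 2 it was 0.35 and passed (adjusted p = 0.0336 in limma), and with chromosome medians subtracted it was -0.02.

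Genes with an ERSE in the promoter window moved in both directions. Of 37 such genes 22 were in the table and 18 were tested, of which 7 rose, 7 fell and 4 were not called, with a median log2 difference of 0.10. The shares of 38.9% higher and 38.9% lower lie near those over all genes. Among ERSE holders Ero1lb, Syvn1 and Canx rose by log2 differences of 2.81, 1.63 and 1.10, while Derl3 and Acacb, the gene of the mitochondrial acetyl-CoA carboxylase, fell, with log2 differences of -5.08 and -4.73. Of holders in the chaperone and ERAD machinery lists, Hspa5, Calr, Canx, Dnajc3, Ero1lb and Syvn1 rose, while Hsp90b1 and Pdia6 were not called. With or without an ERSE, 18 of 27 chaperone genes and 22 of 35 ERAD machinery genes rose, and 0 and 2 fell. The holders in these lists are therefore not set apart from the lists as a whole. Of the members, Derl3 fell and Creld2 was not called. The other fallers, Acacb, Hnrnpa3, Pan2, Spats2l, Tdrd9 and Zfp57, lie outside the pathway lists, as does Alg12, which rose. Alg12 (minus strand, to 88819318) and Creld2 (plus strand, from 88819646) are divergent neighbours on chromosome 15. The same ERSE may therefore be counted for both. Canx, Alg12, Acacb and the other fallers outside the lists are named here after their values were seen in this set.

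The derlins, multi-pass proteins thought to form part of the channel through which ERAD substrates leave the ER, split. Derl1 (chromosome 15, 57869502 to 57892448) measured 1091, 1151 and 1018 in the controls and 2205, 2195 and 2250 in the clones, a log2 difference of 1.03 ± 0.10 (adjusted p = 1.84e-05 in limma). Derl2 (chromosome 11, 71007164 to 71019841) measured 762, 705 and 818 in the controls and 1896, 1796 and 1778 in the clones, a log2 difference of 1.26 ± 0.11 (adjusted p = 8.54e-06 in limma). Both were at least 2.04 times the control mean, with no overlap between groups. Derl2 shares 231 exonic bases with Mis12 on the opposite strand, and Mis12 measured 1353, 1067 and 993 in the controls and 1635, 1488 and 1538 in the clones. The sources used here do not say how reads in such overlaps were assigned.

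Derl3 (chromosome 10, 75893413 to 75895941), the derlin best known from secretory tissues, went the other way. It measured 144, 167 and 96.4 in the controls and 2.98, 3.08 and 2.77 in the clones. In each clone this was 3 times the library's smallest nonzero value, against 152, 155 and 96 times in the controls. The control mean was 46.2 times the clone mean, with a 95% counting interval (exact Poisson on the 9 multiples in the clones) of 24.3 to 101, which covers counting error only. The log2 difference was -5.08 ± 0.30 (adjusted p = 9.14e-07 in limma), and it was -4.11 with a pseudocount of 5 and -3.84 with quantile normalization. Of all tested genes, 4.93% had a lower log2 difference.

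Per base of merged exons, Derl3 made up 14.6%, 16.2% and 10.6% of the summed derlin level in the controls and 0.166%, 0.175% and 0.155% in the clones. By coding length these means were 7.32% and 0.0784%, so the size of the share rests on the gene models while the separation of the groups does not. The summed derlin level was 489 ± 31.1 scaled counts per kb in the controls and 894 ± 8.66 in the clones (exact two-sided permutation p = 0.1, the smallest possible). Derl2 and Derl3 transcripts shared no exact run longer than 17 bases, Derl1 and Derl2 none longer than 12, and Derl1 and Derl3 none longer than 10.

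**Figure D2:**
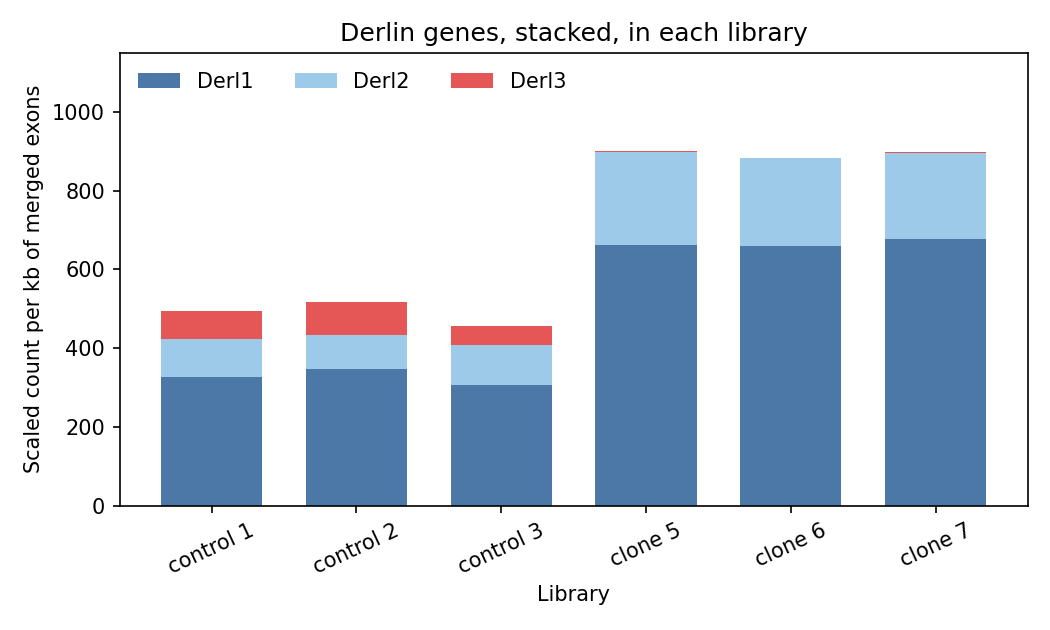
Stacked bars of Derl1, Derl2 and Derl3 in each library, in scaled counts per kb of merged exons. The total is 456 to 518 in the controls and 884 to 900 in the clones, and the Derl3 segment, 48.4 to 84.0 in the controls, is a hairline at most in the clones.

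In all, 6 of the 10 genes were called higher and 1 lower, with 3 not called, and the median log2 difference was 0.64. Over all tested genes 73.5% were called, 35.2% higher and 38.3% lower, with a median of -0.07. The groups did not overlap for 5 genes that were higher and 1 that was lower, while over all tested genes 77.3% did not overlap, 36.7% higher and 40.6% lower. Except for Derl3, the 10 genes lie in the middle and upper part of the distribution, from Xbp1, which 13.9% of tested genes exceeded, to Eif2ak3, which 49.6% exceeded. Xbp1, Ern1, Derl1, Derl2, Derl3 and Herpud1 were called in the same direction under all 15 alternative settings, and the other 4 were not.

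**Figure D3:**
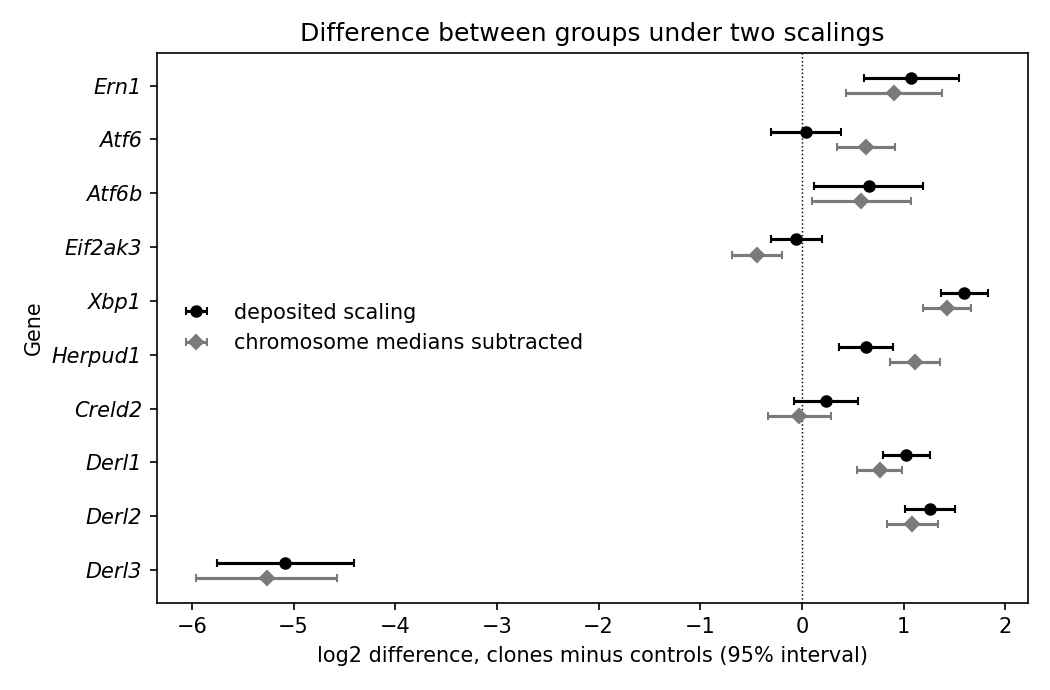
Log2 difference (clones minus controls) with its 95% interval for the 10 genes, with the deposited scaling (circles) and with the median of each chromosome subtracted (diamonds). Atf6 moves from 0.04 to 0.63, Eif2ak3 from -0.06 to -0.44 and Herpud1 from 0.63 to 1.11, while Xbp1, Derl1, Derl2 and Ern1 stay above 0 and Derl3 near -5.

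The wider ERAD machinery was mostly higher. Of 35 genes, all tested, 22 rose, 2 fell and 11 were not called, against 35.2% higher and 38.3% lower over all genes. The median log2 difference was 0.70, or 0.50 with quantile normalization. The lectin gene Os9, which hands misfolded glycoproteins to the ligase, rose from 541 ± 54.5 to 3865 ± 262 (log2 difference 2.84). Aup1, an adaptor that recruits the ubiquitin-conjugating enzyme UBE2G2, rose from 819 ± 102 to 4786 ± 350, and the ubiquitin-conjugating enzyme gene Ube2j1 from 545 ± 25.8 to 2668 ± 121. The core ligase pair rose too: Syvn1, which encodes HRD1, from 678 ± 151 to 2070 ± 156 and its partner Sel1l from 1404 ± 243 to 3455 ± 215. Edem1, a mannose-trimming factor and a known XBP1 target, rose by a log2 difference of 1.13. Vcp, the ATPase that pulls substrates out of the membrane, measured 9446 ± 672 and 10789 ± 187 and was not called (adjusted p = 0.0965 in limma), but it was called without control replicate 1 (log2 difference 0.25) and with chromosome medians subtracted (0.48). Both calls in the lower direction were small: Ube2g1 had a log2 difference of -0.35 and Rad23b of -0.26, and with chromosome medians subtracted Rad23b was 0.03. Neither passed on leaving out control 1 (-0.25 and -0.18), clone 5 (-0.37 and -0.26), clone 6 (-0.37 and -0.25) or clone 7 (-0.30 and -0.26), nor with eBayes without trend.

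ER chaperone and folding genes were higher in 18 of 27 cases and none was called lower, against 35.2% higher and 38.3% lower over all genes. Their median log2 difference was 0.54, or 0.35 with quantile normalization and 0.71 with chromosome medians subtracted. The oxidase gene Ero1lb rose from 223 ± 46.7 to 1552 ± 133, Creld1, the paralog of Creld2, from 740 ± 136 to 3011 ± 306, and the co-chaperone gene Dnajb11 by a log2 difference of 1.51. Hspa5, the BiP chaperone gene and the standard readout of the response, measured 14030 ± 1704 and 17552 ± 96.1. Its log2 difference of 0.33 passed (adjusted p = 0.0254 in limma) but did not pass without control replicate 2 (0.31), control replicate 3 (0.25), or any single clone (0.33 each), nor with quantile normalization (0.25) or eBayes without trend (adjusted p = 0.0577 in limma). Hsp90b1, the GRP94 gene, measured 27541 ± 2297 and 30025 ± 1123 (log2 difference 0.13, -0.06 with chromosome medians subtracted). Dnajb9, a co-chaperone of BiP and an XBP1 target, measured 470 ± 35.0 and 478 ± 23.8 (log2 difference 0.03, with values below 0 under quantile normalization and without control replicate 2 or clone 7). Neither was called.

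Genes of protein entry into the ER and of N-glycosylation rose in 14 and fell in 6 of 31 tested cases. These shares were 45.2% and 19.4%, against 35.2% and 38.3% over all genes. Their median log2 difference was 0.19, or 0.01 with quantile normalization and 0.51 with chromosome medians subtracted. Ssr4, a subunit of the translocon-associated complex, rose from 1037 ± 55.3 to 2688 ± 90.1, the signal peptidase gene Sec11c from 279 ± 11.7 to 699 ± 46.4 and the ribophorin gene Rpn1 from 5243 ± 220 to 9744 ± 133. Ssr2, Sec61a2 and Srp9 fell, with log2 differences of -0.71, -0.67 and -0.66, and Srp9 was at -0.07 and not called with chromosome medians subtracted. Sec61b, a subunit of the translocation channel, measured 909 ± 297 and 631 ± 108 and was not called (adjusted p = 0.103 in limma), and it was called lower without control replicate 3 (log2 difference -0.75) and with quantile normalization (-0.69).

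Of 23 tested partners of the sensors, 10 rose, 7 fell and 6 were not called. That is 43.5% higher and 30.4% lower, against 35.2% and 38.3% over all genes. The median log2 difference was 0.26, or 0.05 with quantile normalization and 0.17 with chromosome medians subtracted. Map3k5, the ASK1 kinase that acts below IRE1α, rose from 215 ± 15.7 to 1499 ± 58.3. Among relatives of PERK that also phosphorylate eIF2α, Eif2ak4 and Eif2ak2 rose by log2 differences of 1.12 and 1.37, and Eif2ak1 (0.30) was not called. Eif2ak2 and Eif2ak1 are named after their values were seen. Creb3, a membrane-bound factor related to ATF6, rose by 1.63, while its relative Creb3l3 fell from 45.1 ± 4.28 to 4.64 ± 1.72. The proteases that release ATF6 moved in opposite directions: Mbtps1 (site-1 protease) fell from 5816 ± 339 to 3595 ± 131 and Mbtps2 (site-2 protease) rose from 1484 ± 358 to 2464 ± 153. Mbtps1 lies on chromosome 8, and with that chromosome's median subtracted its log2 difference went from -0.69 to -0.21 and was no longer called (adjusted p = 0.0522 in limma). Rtcb, the ligase that rejoins Xbp1 mRNA, measured 4407 ± 325 and 4781 ± 72.4 and was not called. Its log2 difference of 0.12 turned to -0.04 with quantile normalization and -0.06 with chromosome medians subtracted. Of the genes around eIF2α, Eif2s1, which encodes it, fell, with a log2 difference of -0.43, as did the phosphatase subunit gene Ppp1r15b (-0.86). Ppp1r15b lies on chromosome 1. With chromosome medians subtracted its log2 difference was -0.28, still called lower (adjusted p = 0.0189 in limma). Ppp1r15a (GADD34) measured 727 ± 76.5 and 868 ± 74.2 without a call, but was called without control replicate 2 (log2 difference 0.34) and with chromosome medians subtracted (0.44). The Y-box binding subunit gene Nfyb, part of the NF-Y factor that reads the CCAAT part of an ERSE, fell too (log2 difference -0.91).

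**Figure D4:**
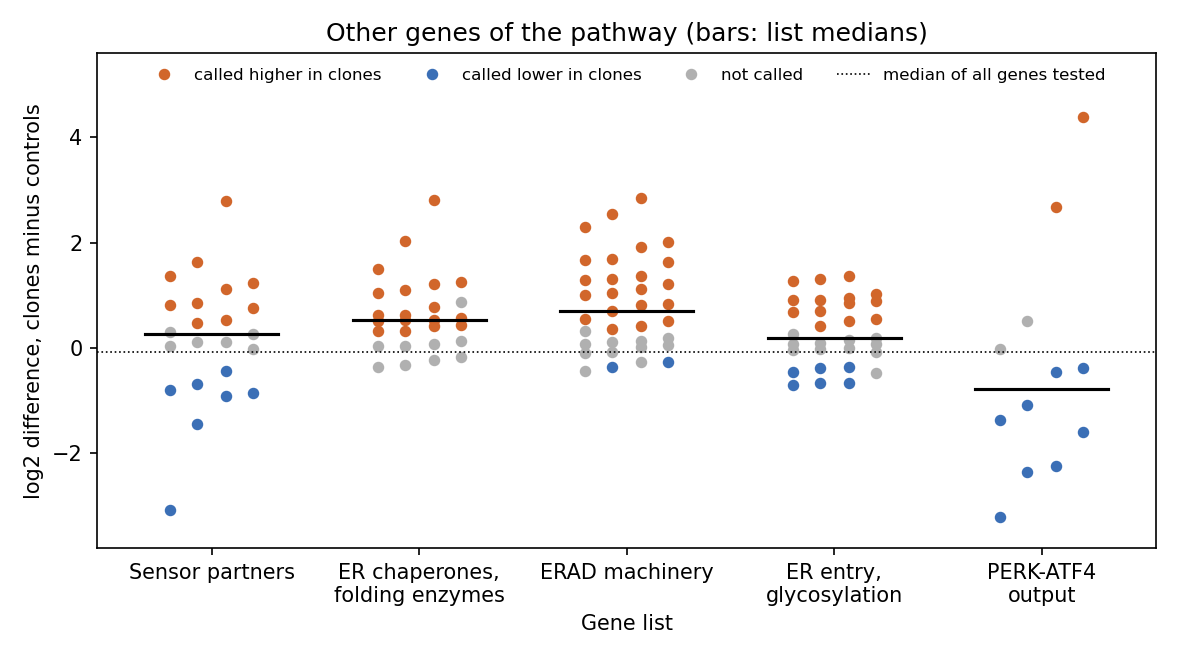
Log2 difference (clones minus controls) of each tested gene in 5 pathway lists, coloured by call, with list medians as bars and the median of all tested genes (-0.07) as a dotted line. The bars stand at 0.26, 0.54, 0.70, 0.19 and -0.77 from left to right, and only the PERK-ATF4 list has its bar below the dotted line.

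Levels were compared between genes per kb of merged exons, and their order depends on the gene models: by coding length Atf6 stood above Atf6b, and Derl2 made up 39.3% and not 19.5% of the derlin level in the controls. In the controls the order was Creld2 (744 ± 119 scaled counts per kb), Derl1 (327 ± 19.98), Atf6b (310 ± 100), Xbp1 (308 ± 22.8), Herpud1 (211 ± 6.80), Atf6 (199 ± 41.2), Eif2ak3 (142 ± 8.82), Derl2 (94.7 ± 6.99), Derl3 (68.2 ± 18.1) and Ern1 (49.8 ± 14.3). The neighbours Derl1 and Atf6b, Atf6b and Xbp1, Herpud1 and Atf6, and Derl3 and Ern1 had overlapping ranges. In the clones Xbp1 (932 ± 18.0) and Creld2 (871 ± 43.7) stood first with overlapping ranges. Derl1 (666 ± 8.84), Atf6b (480 ± 97.4), Herpud1 (327 ± 11.6), Derl2 (227 ± 7.93), Atf6 (202 ± 13.1), Eif2ak3 (137 ± 2.99), Ern1 (103 ± 11.8) and Derl3 (1.48 ± 0.0803) followed, with no overlap between neighbours. By mean, Xbp1 went from the fourth place to the first and Derl3 from the ninth to the last. The control ranges of Derl1, Atf6b and Xbp1 all overlapped, so the order among them is not settled, nor is that of Xbp1 and Creld2 in the clones.

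Likeness of pattern told few genes apart. Over the 6 libraries the genes with the highest Pearson r to Xbp1 on the log2(scaled count + 1) scale were Ssbp2, C920009B18Rik and Tpm3-rs7 (r from 0.9998 to 0.9999), and those closest to Derl3 were 1700029P11Rik, Tinf2 and Apobec2 (r = 0.9998). Such likeness was common: 3236 tested genes had r above 0.95 with Xbp1 and 3657 with Derl3, and all points come from the same 6 libraries in 2 groups.

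Markers of other cell types also differed between the groups. Fibroblast and feeder markers were higher in 10 of 11 tested cases, with summed levels of 9558 to 10909 in the controls and 52330 to 67306 in the clones. Epithelial markers moved both ways, 5 higher and 6 lower of 11, with sums of 27851 to 42116 and 30088 to 32884. Those that rose were Krt5, Krt14, Krt8, Krt6a (0 in all controls, 3657 ± 636 in the clones) and Ehf (1.69 ± 0.605 and 16997 ± 810). Those that fell were Krt18, Grhl2, Esrp1, Cldn4, Cdh1 (15794 ± 3163 and 982 ± 257) and Epcam (5922 ± 256 and 1006 ± 189). Of 12 markers of professional secretory cells 5 were in the table and 4 were tested, with sums of 2325 to 2575 in the controls and 4991 to 5968 in the clones. Prdm1 rose from 799 ± 251 to 1851 ± 91.2 and Sdc1 from 1508 ± 119 to 3230 ± 268, and Mzb1 from 4.402 ± 0.872 to 352 ± 310, while Bhlha15, which encodes the secretory cell factor MIST1, fell from 170 ± 36.7 to 12.9 ± 5.87. Their part in the results above was not tested, and in bulk RNA a change in the share of a cell type and a change of RNA per cell cannot be told apart.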

How the data were processed

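Poly(A) RNA of 6 mouse libraries was sequenced after a stranded TruSeq preparation from 500 ng of RNA with 8 PCR cycles, per the labels' protocols. The deposited signal holds the authors' read counts per gene scaled with DESeq 1.22.1, per the file headers and the submitters' processing notes, which also name HTSeq 0.5.3, STAR 2.5.0a, cutadapt 1.6 and mm10. Settings and the use of strand in counting are not stated there.

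Positions and lengths came from GENCODE M21 (GRCm38, the assembly of mm10), which matched 17860 of 17912 genes. Values plus a pseudocount of 1 were log2-transformed and, where the mean reached 10, tested with limma 3.58.1 (lmFit, trended eBayes), with Benjamini-Hochberg adjustment over 15179 genes and a threshold of 0.05. On this scale changes of low genes come out too small. The 95% intervals of log2 differences are limma's. Named were all members, the 3 called genes of smallest p per direction in each of 5 pathway lists, 16 further pathway genes (1 of them is not reported here) and the genes most like Xbp1 and Derl3; other names are marker or promoter-match genes. The members and lists were chosen with earlier results of these data known. The test was checked on simulated counts of 14621 genes, most of them unchanged. It called 5 of 14425 unchanged genes, 26 of 49 changed 1.5-fold, 40 of 48 changed 2-fold, 38 of 49 at 0.5-fold and 50 of 50 changed 4-fold. This does not cover data in which 73.5% of genes are called. R 4.3.3, Python 3.11.15 and matplotlib 3.10.9 were used.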

Additional observations from a re-analysis of the deposited data

How the results depend on the processing

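Each result was recomputed with another pseudocount (0.5 or 5), another filter (none, or a mean of 50), another scaling (TMM or quantile), eBayes untrended or robust, chromosome medians subtracted, and each library left out in turn. The count models planned for reads recovered from the scaled values were not run, because the values were kept as a scaled signal. No paired analysis was possible because controls and clones share no replicate number. Depth limits Derl3 in the clones and the lowest list members. Where a value changed, the cause was not tested.

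Atf6 was -0.17 with quantile normalization, 0.63 and called with chromosome medians subtracted, -0.08 to 0.20 on leaving out a library, -0.08 without control replicate 2 and -0.01 without clone 5. Atf6b lost its call with quantile normalization (0.44) and eBayes without trend (0.66), and ran from 0.51 to 0.91 on leaving out a library. Eif2ak3 was -0.44 and called, and Creld2 -0.02, with chromosome medians subtracted. Creld2 ran from 0.11 to 0.35 on leaving out a library. Reversed without a call were Hsp90b1 (-0.06), Rtcb (-0.06) and Rad23b (0.03) with chromosome medians subtracted, Dnajb9 (-0.15) and Rtcb (-0.04) with quantile normalization, and Dnajb9 without control replicate 2 (-0.04) or clone 7 (-0.01), its range on leaving out a library being -0.04 to 0.06.

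With chromosome medians subtracted, 2 members were called lower, as were 2 chaperone genes, 1 ERAD machinery gene and 3 ER entry genes. With quantile normalization 3 chaperone and 5 ERAD machinery genes were lower, and 0 ERAD machinery genes without trend. On leaving out a library these lower counts ran from 0 to 2 for chaperones and 0 to 3 for ERAD machinery. The Derl3 share of derlins differed by -13.65 percentage points per merged exon length, -7.24 by coding length and -6.75 without length, and by -15.25 to -12.44 on leaving out a library. Of 1080 comparisons with the main value, over 73 results, 1003 kept direction and call, or for values without a test stayed within the set limits.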
